A study of Saccharomyces cerevisiae with 12 samples.

Results

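The nuclear genes for mitochondrial ribosomal proteins of the budding yeast Saccharomyces cerevisiae were followed through a heat shock course and a rapamycin course. They were taken by name, as every gene of the deposited table called MRPL, MRPS or RSM followed by a number. This gave 54 of the 5045 listed genes, 34 of the large subunit (MRPL) and 20 of the small subunit, of which 9 had MRPS and 11 had RSM names. All 12 libraries were polyA RNA of the strain Sis1-AA (source DPY1284) grown in YPD, a rich glucose medium. In the heat shock course 1 untreated library was made at 30 °C and 1 library after 15, 30, 60, 90 and 120 min at 39 °C. The rapamycin course had 1 untreated library and 1 library at the same 5 times after addition of 1 µM rapamycin. In an anchor-away strain rapamycin ties a tagged nuclear protein, here the Hsp70 co-chaperone Sis1, to an anchor that carries it out of the nucleus. As all libraries came from 1 strain, the untreated and heat-shocked cells carried the same alleles. Cells given rapamycin without a Sis1 tag were not analysed here, so the effect of the drug itself and of Sis1 loss cannot be told apart. The courses address how the response to nuclear Sis1 depletion compares with that to heat.

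Mitochondria carry their own ribosomes, which in yeast make a handful of inner membrane proteins, mostly subunits of the respiratory chain and the ATP synthase. The ribosomal RNAs are transcribed inside the organelle, whereas nearly all the protein components are encoded in the nucleus, made in the cytosol and imported. Some of these proteins descend from bacterial ribosomal proteins, and others exist only in mitochondrial ribosomes. Many of their mRNAs are bound by Puf3, a Pumilio-family protein that recognises a short element in the 3′ untranslated region and is known to control the stability, translation and mitochondrial location of its targets. Genes for cytosolic ribosomal proteins are under separate control and are known to be strongly repressed after stress.

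Each library had between 2991418 and 4379304 reads in the table's genes, of which 9832 to 17034 fell on the 54 genes and 45 to 1160 on any 1 of them. Values are the authors' normalized read counts. Changes are differences in log2(value + 1), which understates the change of a low gene. FPR1, the usual rapamycin receptor gene that anchor-away strains lack, had 0 to 4 reads in each library. No time point was replicated. The p-values below come from a limma fit whose residual is the departure of the 5 treated libraries of each course from a line in log2(time), so they describe these 12 libraries and hold no spread between cultures. Each course rests on 1 untreated library. In bulk RNA a lower level per cell and fewer cells in a given state cannot be told apart.

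Nearly all the genes carried the letters that Puf3 recognises. On the coding strand, the 200 bases after the stop codon held TGTANATA (N is any base) in 53 of the 54 genes (98.1%), against 844 of 6002 protein-coding genes (14.1%) of the RefSeq annotation, assembly R64. All 34 large subunit genes and 19 of 20 small subunit genes held it. RSM22, a methyltransferase-like small subunit protein, was the gene without it in this window. Of 24 genes listed as mitoribosomal with names outside the pattern 23 held it (95.8%). That list includes YMR31, a gene since assigned to the alpha-ketoglutarate dehydrogenase complex. The element was also in 25 of 33 mitochondrial translation and ribosome assembly factors (75.8%) and 5 of 132 cytosolic ribosomal protein genes (3.8%). The 54 genes held 66 such elements, with 12 genes holding more than 1. The elements began 8 to 165 bases after the stop codon, with a median of 56.5. The form TGTACATA, which is contained in TGTANATA, was in 16 of the 54 genes (29.6%) against 2.5% of all. A C stood 2 bases before the element in 43 of 66 cases (65.2%), against 213 of 848 elements of other genes (25.1%), a feature looked at after the sequences were seen. The annotation does not mark where these transcripts end, so a match is a description of the DNA and not a bound site.

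For 8 genes that recur in the results the element nearest the stop codon is printed 5′ to 3′ on the coding strand, with the element in capitals and 11 bases on either side, from RefSeq assembly R64. MRPL28 and MRPL33 hold 1 more each. The letter left free (N) was A in MRPL28, MRPL25, MRPS12, RSM10 and MRPL15, C in MRPL11 and RSM7, and T in MRPL33.
MRPL28 (chrIV:1386537-1386566, plus strand): ctgtctcctgcTGTAAATAactgatgatca
MRPL25 (chrVII:637008-637037, minus strand): atgtctaatcaTGTAAATAattttgtgata
MRPS12 (chrXIV:694269-694298, minus strand): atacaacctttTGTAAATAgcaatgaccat
RSM10 (chrIV:540462-540491, plus strand): gatttcgtactTGTAAATAaaataggtgaa
MRPL11 (chrIV:99267-99296, plus strand): ctattcaatcaTGTACATAcatcatcaaaa
MRPL15 (chrXII:760291-760320, plus strand): aaaaatttatcTGTAAATAgtgatcgaaat
MRPL33 (chrXIII:842249-842278, plus strand): tgacttatataTGTATATAgtattattttt
RSM7 (chrX:638192-638221, minus strand): gtaaacttgccTGTACATAaacacatttat

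**Figure D1:**
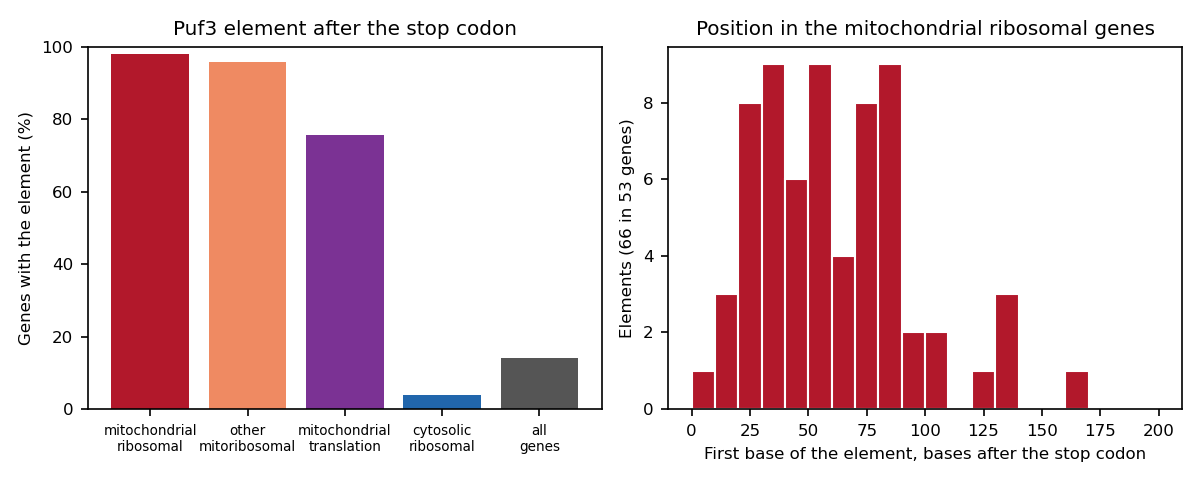
Left, percent of genes in each list with TGTANATA in the 200 bases after the stop codon; right, number of elements of the mitochondrial ribosomal genes by the position of their first base. The share is 98.1% in the 54 genes and 14.1% in all protein-coding genes, and the elements begin 8 to 165 bases after the stop.

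Upstream of the coding sequences no comparable feature was found among the 3 motifs searched. The window ran from 250 bases before to 50 bases after the first base of the start codon, and both strands were read. GATGAG, the core of the PAC element of ribosome biogenesis genes, was in 18.5% of the 54 genes and 20.4% of all protein-coding genes. AAAATTTT was in 5.6% against 9.0%, and AGGGG, the core of the stress response element bound by Msn2 and Msn4, in 14.8% against 21.6%. None of the 3 motifs contains another.

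The genes spanned a modest range of levels. Per kilobase of coding sequence, the mean normalized read count over the 12 libraries had a median of 373.0 over the 54 genes, against 253.9 over all genes tested and 8719.2 over the cytosolic ribosomal protein genes. The large subunit median was 363.8 and the small subunit median 488.3. On this scale the highest level was that of MRPS12, the homolog of bacterial S12 in the decoding centre, at 1519.7, followed by MRPL36 at 953.5 and MRPL51 at 844.2. The lowest were RSM22 at 127.7, MRPL4 at 136.3 and RSM23, related to the human GTP-binding protein DAP3, at 186.6. The reads of MRPL51 may include those of an antisense reading frame that overlaps it, and those of MRPL19 may include an overlapping frame on the same strand, since the strand use of the counting is not given in the sources used here.

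In heat shock the mitochondrial ribosomal protein mRNAs stayed near their untreated level on the authors' scale, while 127 of the 132 cytosolic ribosomal protein genes fell. The summed normalized read count of the 54 genes was 14021.9 before heat and 17320.0, 15780.7, 13497.6, 13189.9 and 13204.5 at 15, 30, 60, 90 and 120 min. The first 2 treated libraries thus stood above the untreated library and the last 3 just below it. As a share of all values the genes took 0.329% before heat and 0.395% to 0.433% after it. All 5 treated libraries thus lay above the untreated one by this measure. The untreated library of the rapamycin course stood between them at 0.377%. For every 100 normalized reads of cytosolic ribosomal protein genes, which needs no scaling between libraries, the 54 genes had 1.61 before heat and 16.6, 10.31, 4.24, 4.48 and 5.54 after it. The cytosolic genes took 20.45% of all values before heat and 2.38% at 15 min, so the ratio moved mainly with them. A fall of that size by itself also lifts the share of all values that other genes take. In the rapamycin course the same ratio was 1.68 before the drug and lay between 1.54 and 1.75 after it.

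The median log2 change of the 54 genes from the untreated library in heat was 0.28, 0.13, −0.05, −0.07 and −0.07 in the libraries of 15 to 120 min, in time order. At 15 min 41 of the 54 genes lay above their untreated value and at 120 min 20 did. Of all genes tested 2375 and 2270 did. The median over all 4937 genes tested was lower, and the 54 genes exceeded it by 0.33, 0.17, 0.02, 0.02 and 0.02 in time order. The cytosolic ribosomal protein genes had medians of −3.12 at 15 min and −1.84 at 120 min. The mitochondrial translation and assembly factors had medians between 0.18 and 0.38 at all 5 times. Measured against the untreated library of the rapamycin course instead, the medians of the 54 genes were 0.08, −0.05, −0.23, −0.29 and −0.30. The value at 15 min was smaller with this other reference. On the authors' scale the medians were lower late than early with either one. The reference cannot test this decline, since it shifts each gene by the same amount at all 5 times. The scale between libraries bears on this: with all libraries set to equal totals the medians were 0.24, 0.30, 0.30, 0.32 and 0.42, with no decline. That scaling moved the median of all genes tested as well, to 0.39 at 120 min, and since it shifts all genes of a library alike it leaves the excess of the 54 genes over that median as it was. Quantile normalization gave medians of 0.35, 0.19, −0.06, −0.10 and −0.09, which decline as on the authors' scale.

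**Figure D2:**
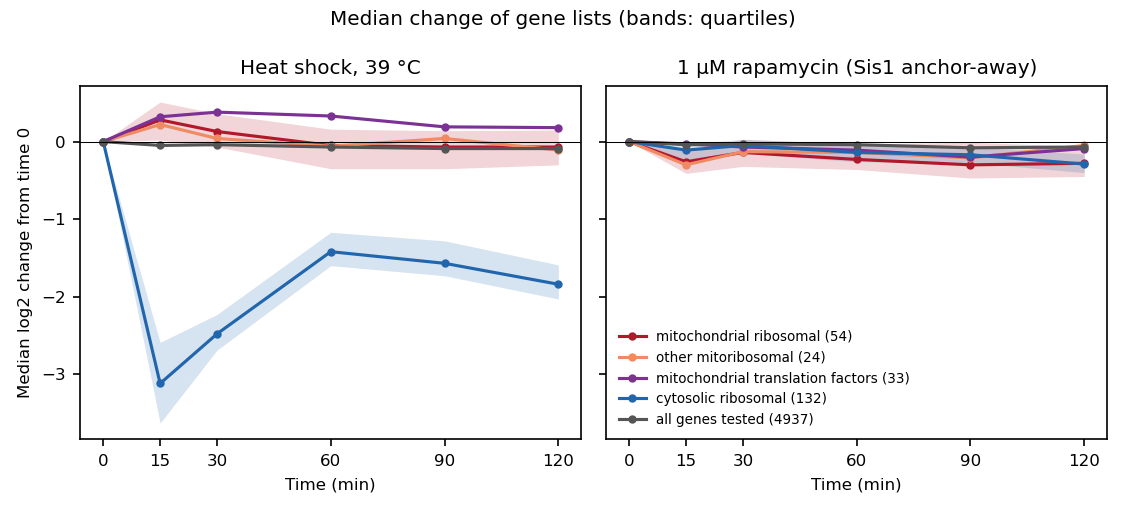
Median log2 change of each gene list from the untreated library of its course (vertical axis) against time in min (horizontal axis), in heat shock (left) and rapamycin (right), 1 library per point; bands are the quartiles over genes of the mitochondrial and cytosolic ribosomal lists. The mitochondrial ribosomal genes run from 0.28 at 15 min of heat to −0.07 at 120 min, while the cytosolic ones reach −3.12.

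On the authors' scale 13 of the 54 genes changed on average over the heat course. The mean change over the 5 treated times had a median of 0.03 and ran from −0.69 to 1.20, with an SD of 0.35 over the genes against 1.44 over all genes tested. By the limma fit with Benjamini-Hochberg adjustment over all genes tested, 9 rose and 4 fell at an adjusted p under 0.05. Of all genes tested 32.6% rose and 37.2% fell. Both counts are smaller shares of the 54 genes than the background shares. Of the large subunit genes 8 rose and 4 fell, and of the small subunit genes 1 rose and 0 fell, also 0 at an unadjusted p under 0.05. The median was 0.05 over the 33 genes related to bacterial ribosomal proteins and 0.01 over the 21 found only in mitochondrial ribosomes, with 5 and 4 genes rising and 2 and 2 falling. The counts depended on scale and reference: equal totals gave 21 higher and 2 lower, TMM factors 14 higher, exchanged untreated libraries 15 lower, a shared time 0 gave 14 lower, and the heat course fitted alone 2 lower. Without the 15 min heat library 8 of the 54 genes were called lower. Equal totals also raised the median change of all genes tested, to 0.39 at 120 min. The share of all genes called under these settings is not given here, so these counts have no background beside them. The 24 other mitoribosomal proteins had a median of 0.00, with 7 rising and 2 falling, or 6 and 2 without YMR31. Of the 33 translation and assembly factors 15 rose and 5 fell, and of the 132 cytosolic ribosomal protein genes 1 rose and 127 fell.

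The genes that rose were MRPL28, MRPL25, MRPS12, MRPL49, MRPL31, MRPL6, MRPL1, MRPL39 and MRPL51. MRPL28, a large subunit protein found in mitochondrial but not bacterial ribosomes, had normalized read counts of 64.18 before heat and 178.95, 158.84, 137.88, 138.73 and 132.57 after it. All 5 treated libraries lay above both untreated libraries, the other of which held 65.32. Its mean change was 1.20 ± 0.21 (SE, adjusted p = 0.000501). It was one of the low genes, and its 45 reads before heat and 176 at 15 min gave a 2.79-fold ratio (95% counting interval 2.0 to 3.96). Such intervals cover counting error only.

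MRPS12 had 591.85 before heat and 1179.47, 1007.56, 791.95, 798.49 and 752.34 after it. Every heat-shocked library was above all 7 libraries without heat, which lay between 467.70 and 613.18. The mean change was 0.59 ± 0.11 (SE, adjusted p = 0.000521), and the value at 15 min was 1.99 times the untreated one (counting interval 1.78 to 2.24). MRPL51, a mitochondria-specific large subunit protein, went from 312.33 to 515.51, 475.33, 401.86, 344.26 and 355.43, with a mean change of 0.40 ± 0.11 (SE, adjusted p = 0.00628). MRPL28, MRPS12 and MRPL51 were called under every one of the 22 alternative settings.

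MRPL25, another mitochondria-specific large subunit protein, had 71.31 before heat and 154.55, 151.73, 132.83, 130.51 and 114.68 after it. Over the course it changed by 0.92 ± 0.17 (SE, adjusted p = 0.000612). The untreated library of the rapamycin course held 116.44, which lies inside the range of the heat-shocked libraries, and with that library as the reference the change was 0.22 and not called. MRPL49, related to bacterial L21, had 152.60 before heat and 272.50, 218.11, 206.82, 198.34 and 198.45 after it, while the other untreated library held 221.52. The limma fit gave it a mean change of 0.51 ± 0.11 (SE, adjusted p = 0.0024), and −0.03 with the untreated libraries exchanged. MRPL31 had a mean change of 0.46 ± 0.14 (SE, adjusted p = 0.0149) and 0.04 with the exchange. MRPL1 and MRPL39, outside the rule for naming, each changed by 0.41 and by 0.14, not called, with the exchange. The calls of these 5 genes therefore rested on the untreated library of the heat course, while MRPL6 changed by 0.45 and by 0.48 with the exchange, called both times.

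The genes that fell were MRPL11, MRPL15, MRPL32 and MRPL37, all of the large subunit. MRPL11, related to bacterial L10 of the stalk base, had 222.48 before heat and 175.90, 157.65, 122.74, 121.26 and 118.75 after it. Every heat-shocked library was below the untreated one, and the last 3 were below all libraries of the rapamycin course. Its mean change was −0.69 ± 0.14 (SE, adjusted p = 0.00146). MRPL15, a mitochondria-specific protein with an RNase III-like fold, had 349.41 before heat and 235.89, 232.33, 211.86, 188.06 and 216.35 after it. These 5 values were below all 7 values without heat, of which the lowest was 290.03. This amounted to a mean change of −0.69 ± 0.15 (SE, adjusted p = 0.00154). Both falls were called under all 22 alternatives.

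MRPL32, whose maturation by the m-AAA protease is known to control assembly of the mitochondrial ribosome, went from 242.45 to 213.53, 176.62, 148.81, 163.40 and 178.93. On average it changed by −0.47 ± 0.19 (SE, adjusted p = 0.0471). That call was lost under 13 of the 22 alternatives, among them leaving out the heat libraries at 30, 60 or 90 min (−0.47, −0.41 and −0.44) or the rapamycin libraries at 60, 90 or 120 min (−0.47 each). MRPL37 had a mean change of −0.41 ± 0.14 (SE, adjusted p = 0.0238), not called with equal totals (−0.13) or with the heat course fitted alone (−0.41).

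**Figure D3:**
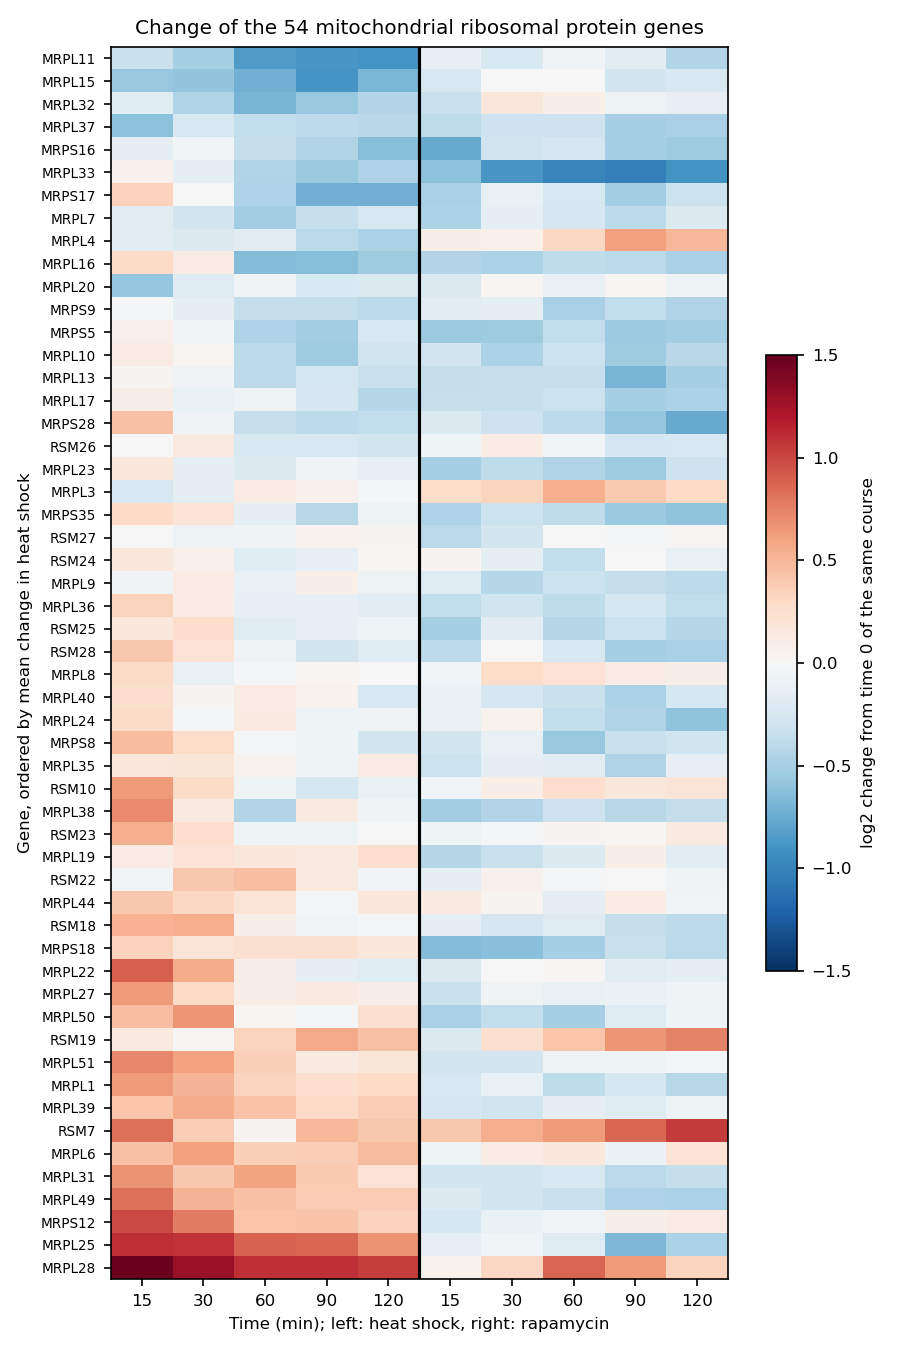
Log2 change of each of the 54 genes from the untreated library of the same course (colour), by time in min, with heat shock to the left of the black line and rapamycin to the right; genes are ordered by mean change in heat shock, from −0.69 at the top to 1.20 at the bottom. The first heat column holds the highest of the 5 heat values for 37 of the 54 genes, and 34 genes are below 0 in all 5 rapamycin columns. Neither count was made over all genes tested.

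Within the heat course most of the genes were highest early on the authors' scale. Of the 54 genes 37 had their highest treated value at 15 min and 10 at 30 min, and in 32 both early libraries lay above all 3 late ones. These counts were not made over all genes tested, so they do not tell whether the pattern is particular to the 54 genes. The slope over the treated times, in log2 units for each doubling of time, had a median of −0.13 against 0.01 over all genes tested. Below 0 were 48 of 54 slopes, and 2422 of 4937 over all genes tested. The limma fit called 25 genes falling with time and 1 rising, RSM19, where 25.4% of all genes tested fell and 28.3% rose. The small subunit gave 12 of the falling genes and the large subunit 13. Cytosolic ribosomal protein genes went the other way, with 120 of 132 rising with time. The slope does not use the untreated libraries, but it rests much on 1 library: without the 15 min heat library 7 genes were called falling, although the median was still −0.12. With equal totals the median slope was 0.04 against 0.18 over all genes tested, and 4 genes were called falling and 9 rising.

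MRPL22, related to bacterial L22 of the peptide exit tunnel, had 552.12, 436.21, 316.11, 269.25 and 259.45 after 15 to 120 min of heat. The first 2 values exceeded both untreated libraries, at 295.21 and 330.39, and the last 2 were below both. The slope was −0.38 ± 0.05 (SE, adjusted p = 0.000173). MRPS17, related to bacterial S17, fell from 591.77 at 15 min to 464.66, 336.29, 281.58 and 280.60, with a slope of −0.38 ± 0.06 (SE, adjusted p = 0.000484). RSM10, related to bacterial S10, had 474.84, 373.39, 290.89, 254.86 and 281.41, with a slope of −0.29 ± 0.05 (SE, adjusted p = 0.000796). MRPL16, related to bacterial L16, had 321.31, 288.04, 167.30, 168.54 and 182.19, with a slope of −0.34 ± 0.06 (SE, adjusted p = 0.00136). These 4 slopes were called under every alternative run for them, leaving out the 15 min library included.

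RSM19, the homolog of bacterial S19, was the exception. It had 129.13, 118.54, 147.97, 173.67 and 159.41 in heat, with a slope of 0.15 ± 0.05 (SE, adjusted p = 0.0375). That call was lost under 8 of 21 alternatives, among them quantile normalization and each course fitted alone. The others were leaving out the heat library at 30 min (0.12), 90 min (0.12) or 120 min (0.17) or the rapamycin library at 60, 90 or 120 min (0.15 each). In rapamycin its values were 100.35 before the drug and 85.87, 118.91, 134.47, 159.08 and 169.27 after it. The last 2 were the highest of that course, and the slope was 0.31 ± 0.05 (SE, adjusted p = 0.00524), called except when the 15 min rapamycin library was left out (0.26).

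**Figure D4:**
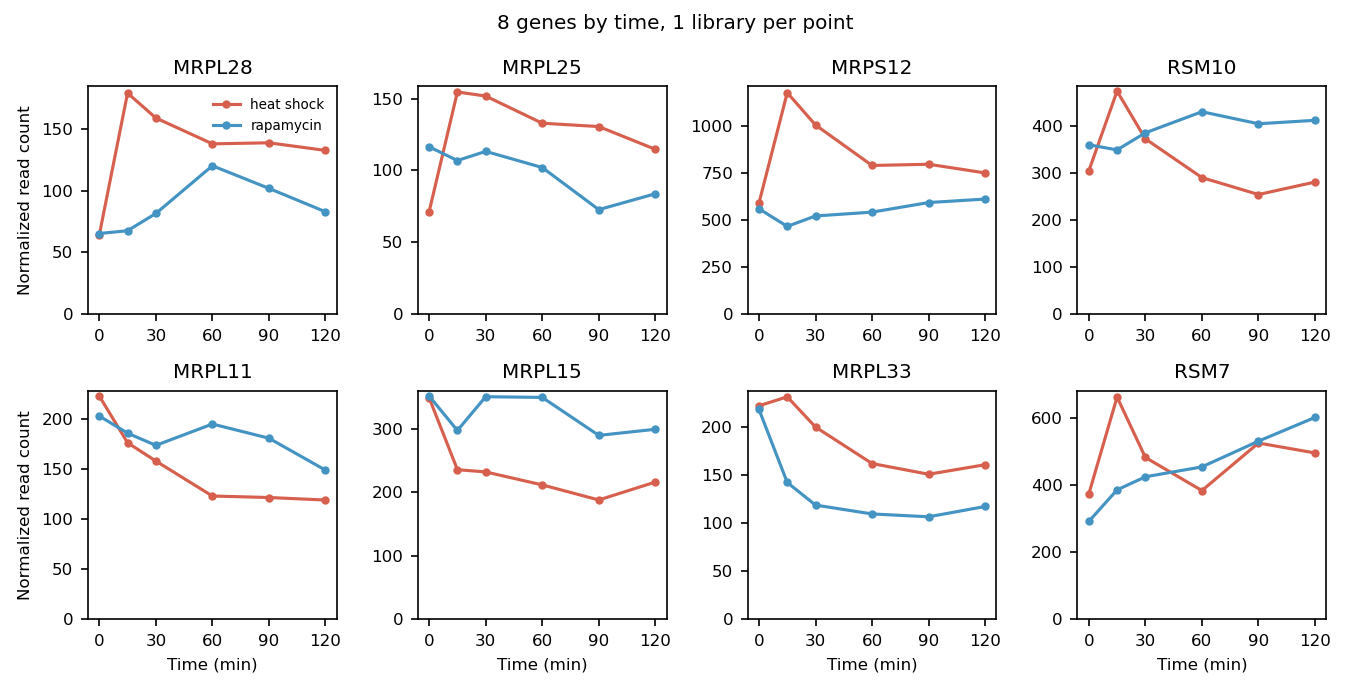
Normalized read count (vertical axis, from 0) of 8 genes against time in min, heat shock in red and rapamycin in blue, 1 library per point. MRPL28, MRPS12 and RSM10 peak at 15 min of heat, at 178.95, 1179.47 and 474.84, MRPL11 and MRPL15 lie lower in all heat-shocked libraries than before heat, MRPL33 falls in rapamycin from 218.68 to 106.70 at 90 min, and RSM7 rises there from 290.63 to 600.22.

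After rapamycin the 54 genes lay slightly below their untreated library. In time order the median log2 change was −0.26, −0.14, −0.23, −0.30 and −0.28. At 15 min 48 of the 54 genes were lower, and 2673 of the 4937 genes tested. At all 5 times 34 genes were below their untreated value and 4 were above it, which was not counted over all genes tested. The mean change had a median of −0.28 against −0.05 over all genes tested. The limma fit called 9 genes lower and 1 higher, where 13.9% of all genes tested fell and 12.3% rose. The share that fell is near that background. Equal totals and TMM factors gave 2 lower each, quantile normalization and a slope in minutes 3, exchanged untreated libraries 4, and the rapamycin course fitted alone 17. The share of all genes called under these settings is not given here. Of the called falls 6 were large subunit and 3 small subunit genes. The 24 other mitoribosomal proteins had a median mean change of −0.17 with 3 higher and 4 lower, and the cytosolic ribosomal protein genes one of −0.16 with 1 higher and 0 lower (1 lower at an unadjusted p under 0.05).

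This difference rested on 1 library. Between the untreated libraries, before any treatment, the 54 genes were lower in the heat course by a median of 0.17 than in the rapamycin course, with 42 of 54 lower. The median over all genes tested was −0.03 (heat minus rapamycin), with 53.2% of them lower. With the untreated library of the heat course as the reference, the medians after rapamycin were −0.05, 0.02, 0.02, −0.06 and −0.06. For 34 genes the highest value of the whole rapamycin course was its untreated library, a count not made over all genes tested. Whether the untreated library or the drug moved the values cannot be told apart without a replicate. The number of called falls was also 3 without the heat library at 90 min, 2 without the rapamycin library at 90 min and 2 without that at 120 min. The number called higher was 2 without the heat library at 60 min or the rapamycin library at 15 min, and 0 without the rapamycin library at 90 or 120 min.

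**Figure D5:**
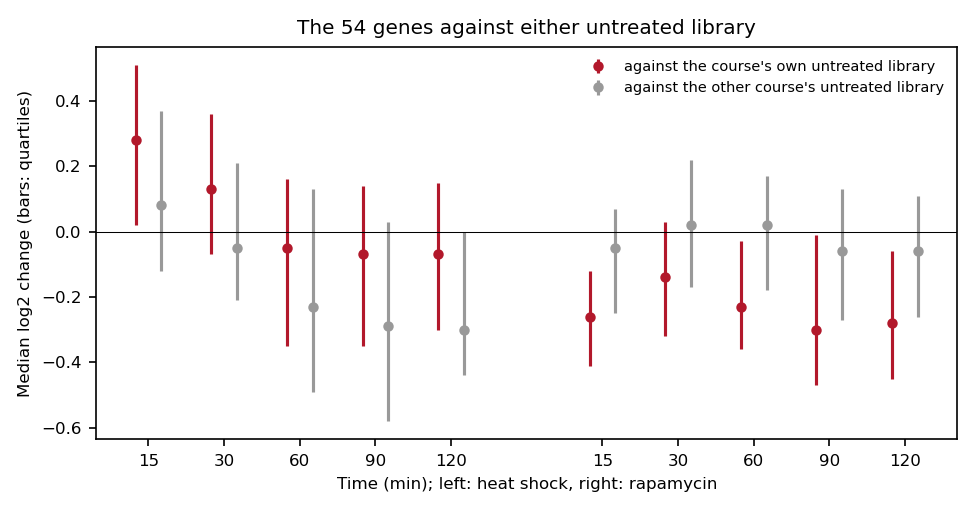
Median log2 change of the 54 genes (vertical axis, points; bars are the quartiles over genes) at each time in min, in heat shock (left) and rapamycin (right), against the course's own untreated library in red and the other course's in grey. In rapamycin the red points lie between −0.30 and −0.14 and the grey ones between −0.06 and 0.02. In heat both sets decline with time, which the choice of reference cannot alter, since it shifts each gene alike at every time.

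MRPL33, related to bacterial L30, was the largest called fall in rapamycin and did not depend on the reference. It had 218.68 before the drug and 142.50, 118.91, 109.67, 106.70 and 117.45 after it, and the untreated library of the heat course held 222.48. All 5 treated libraries lay below both untreated libraries and below every heat-shocked library, of which the lowest was 151.07. The mean change was −0.88 ± 0.14 (SE, adjusted p = 0.00219), called under all 22 alternatives. The value at 15 min was 0.652 times that before the drug (231 and 156 reads, counting interval 0.528 to 0.802).

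The other called falls in rapamycin were smaller. MRPS18, related to bacterial S11, had 444.93 before the drug and 284.09, 288.79, 315.66, 353.08 and 336.81 after it, with a mean change of −0.50 ± 0.11 (SE, adjusted p = 0.00822). All 5 values were below both untreated libraries, of which the other held 395.04. With the untreated libraries exchanged the change was −0.33 and not called. MRPS5, related to bacterial S5, changed by −0.50 ± 0.16 (SE, adjusted p = 0.042). That call was lost under 11 of the 22 alternatives, among them equal totals, TMM factors, quantile normalization and exchanged untreated libraries. Others of the 11 were leaving out the heat library at 90 min (−0.50) or the rapamycin library at 15 min (−0.49), 30 min (−0.49), 90 min (−0.49) or 120 min (−0.50). MRPS28, related to bacterial S15, changed by −0.45 ± 0.14 (SE, adjusted p = 0.0345), a call lost under 9 of the 22 alternatives. With the untreated libraries exchanged its change was −0.15 and not called. The call was also lost with equal totals, TMM factors and quantile normalization. Leaving out the heat library at 90 min (−0.45) or the rapamycin library at 90 min (−0.42) or 120 min (−0.38) lost it too. MRPL13, MRPL17, MRPL23, MRPL36 and MRPL49 made up the rest. With the exchange these changed by −0.40, −0.07, −0.51, 0.07 and 0.18 in that order, and only MRPL23 was called.

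RSM7, the homolog of bacterial S7 that nucleates small subunit assembly in bacteria, was the 1 gene called higher in rapamycin. It had 290.63 before the drug and 384.57, 423.55, 452.99, 529.62 and 600.22 after it. Each treated library was above the one before, and all exceeded both untreated libraries, of which the other held 372.22. The mean change was 0.70 ± 0.20 (SE, adjusted p = 0.027). The call was lost without the rapamycin library at 90 min (0.66) or 120 min (0.61), with the untreated libraries exchanged (0.34) and with time in minutes (0.70). In heat RSM7 had 372.22 before and 660.91, 481.26, 382.52, 524.10 and 494.51 after the shift, a mean change of 0.43 ± 0.20 (SE, adjusted p = 0.0737) that was not called.

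Slopes in rapamycin were small. The median was 0.01, and 3 genes were called rising (RSM19, MRPL4 and RSM27) and 2 falling (MRPL24 and MRPS28), where 8.32% of all genes tested rose and 9.88% fell. None of these was called without the rapamycin library at 15 min, and 1, RSM19, was called without any other single rapamycin library or without the heat library at 90 min. MRPL4, related to bacterial L29 at the exit of the tunnel, had 89.93 before the drug and 95.91, 95.13, 111.58, 137.74 and 127.82 after it. The untreated library of the heat course held 178.27, above all of these, which was the widest gap between the untreated libraries among the 54 genes (0.98 on the log2 scale). Comparisons of MRPL4 with an untreated library therefore changed sign with the reference.

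The courses differed in the mean change of 11 of the 54 genes. The fit called 10 higher in heat than in rapamycin and 1 lower, MRPL4, where 21.7% of all genes tested were called higher and 24.2% lower. The median difference was 0.32. It became −0.10 with the untreated libraries exchanged, which moves the references of both courses in opposite directions. With the untreated library of the heat course for both, heat had medians of 0.28, 0.13, −0.05, −0.07 and −0.07 in time order. Rapamycin then had −0.05, 0.02, 0.02, −0.06 and −0.06, so heat lay higher early and close to rapamycin late. The called genes turned over with the reference: 4 higher and 9 lower with the exchange, and 21 and 9 with a shared time 0. Equal totals gave 21 higher and 0 lower. The shares of all genes under these settings are not given here. Genes called lower numbered 3 without the heat library at 15 min, 2 without the rapamycin library at 15 min, and 0 without the heat library at 90 or 120 min or the rapamycin library at 90 min. MRPS12 held its difference of 0.63 ± 0.15 (SE, adjusted p = 0.0062) under every alternative. The slopes differed for 13 genes, all with a lower slope in heat (21.0% of all genes tested) and 0 with a higher one (26.0%), by the limma fit, and 17 and 0 at an unadjusted p under 0.05. The untreated libraries play no part in a slope, but the scale does: equal totals gave 4 lower and 3 higher, quantile normalization 21 lower and a slope in minutes 6 lower. MRPL22 (−0.39 ± 0.07, SE, adjusted p = 0.0011), RSM10 (−0.36 ± 0.07, SE, adjusted p = 0.0017) and MRPS12 (−0.35 ± 0.06, SE, adjusted p = 0.000864) were called under every alternative run for the slope difference. Without the 15 min heat library 8 genes were called, and without the 15 min rapamycin library 6.

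Large and small subunit genes stayed close to each other throughout. The sum of the 34 large subunit genes was 1.34 times that of the 20 small subunit genes before heat, 1.20 times at 15 min, 1.25 at 30 min, and 1.33, 1.32 and 1.34 at 60 to 120 min. In rapamycin the ratio was 1.32 before the drug and between 1.25 and 1.32 after it. At 15 min of heat MRPS12 alone made up 1179.47 of the small subunit sum of 7860.8.

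Some of the genes share their upstream region with a gene that fell far more in heat. Of the 54 genes 31 had a divergently transcribed neighbour, and 24 of these neighbours were tested. In heat 13 of the 24 were called lower and 4 higher, where 37.2% and 32.6% of all genes tested were, with a median mean change of −0.40. Of those 13 pairs 2 had a mitochondrial ribosomal gene that was called lower too, MRPL11 beside ACK1 (−0.69 and −0.68) and MRPL32 beside CDC10 (−0.47 and −0.42). The 5 pairs with the lowest neighbour were picked after their values were seen. URA7, a CTP synthase gene whose start lies 458 bases from that of MRPL16, had 2872.26 before heat, 25.42 at 15 min and 238.31 at 120 min. This gave a mean change of −4.91 ± 0.28 (SE, adjusted p = 2.742e-07), while that of MRPL16 was −0.28 and not called. RRP12, a ribosome export factor gene 372 bases from MRPS16, changed by −4.31 against −0.33 for MRPS16. IMP3, a ribosome biogenesis gene 250 bases from MRPL6, changed by −3.19 against 0.45. DBP6, a helicase gene of large subunit biogenesis, changed by −2.22 and its neighbour RSM19 by 0.30 across 267 bases. LSM3, an RNA-processing gene, changed by −1.41 and MRPL4 by −0.28 across 312 bases. None of these 5 mitochondrial ribosomal genes was called lower in heat, where 4 of all 54 were, so such calls were few in any case. MRPL16 was called lower in 3 of the 22 alternatives and MRPS16 in 2. At 60, 90 and 120 min of heat MRPL16 lay at −0.65, −0.64 and −0.53, below its mean change.

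In the list of mitoribosomal genes with other names, YMR31 had a mean change in heat of 1.33 ± 0.18 (SE, adjusted p = 6.957e-05). As YMR31 belongs to another complex, the highest mitoribosomal protein gene of that list was MRP49 at 0.88 ± 0.14 (SE, adjusted p = 0.000203). In rapamycin MRP7, related to bacterial L27, fell by 0.62 and MRP20 rose by 0.67, both called. MRP20 had 85.2 before the drug, 104.14 at 15 min and 154.59 at 120 min. The untreated library of the heat course held 121.22, above the 15 min value, so the size of this rise depended on the reference. MRP7 had 620.07, 401.01 and 413.68 at these times, and 531.95 in the other untreated library. Of the translation factors, AIM23, a mitochondrial initiation factor, rose in heat by 1.34 ± 0.15 (SE, adjusted p = 1.89e-05) and MEF2, a ribosome recycling factor, by 1.15 ± 0.20 (SE, adjusted p = 0.000512). The helicase MRH4 changed by −0.52 and RMD9 by −0.51, both called. CBS2, a translational activator of the cytochrome b mRNA, had the lowest rapamycin change of that list at −0.71 ± 0.12 (SE, adjusted p = 0.00328).

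Outside the list, the 695 other tested genes with TGTANATA in the 200 bases after the stop had a median log2 change of 0.13 at 15 min of heat, against −0.09 for the 4162 without it. Over the heat course the median mean changes were 0.06 and −0.11. After 15 min of rapamycin the medians were −0.10 and −0.02. These are descriptions of all such genes, with no test.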

How the data were processed

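PolyA RNA was sequenced from 12 libraries, prepared with NEBNext Ultra reagents after phenol and chloroform extraction, per the labels' protocols. Bowtie, HTSeq and the build sacCer3 are named, with no versions, per the submitters' processing notes; strand use is not given in the sources used here. The authors deposited a signal of normalized gene counts for 5045 genes, per the file headers. Within each library all values judged (up to 500 reads) were whole multiples of 1 step of 0.8133 to 1.4261 within 0.05 read (100.0%), which gave the reads quoted. Genes were tested as log2(value + 1) where the mean was at least 10 (4937 tested, 108 left out, all 54 genes tested). A limma fit (limma 3.58.1, R 4.3.3, eBayes with trend) held per course an intercept, a step (the mean change over 5 treated times) and a centred slope on log2(time), with 6 residual and 4.29 prior degrees of freedom. Two-sided p-values of the 6 contrasts were adjusted by Benjamini-Hochberg over all genes tested and called under 0.05. The script was tested on simulated data. Alternatives were pseudocounts of 0.5 and 5, no filter, a mean of at least 50, equal totals, TMM factors (edgeR 4.0.16), edgeR's quasi-likelihood test on the recovered reads, quantile normalization, a slope in minutes, exchanged or shared untreated libraries, each course alone and leaving out each treated library. Leaving out a library leaves the estimates of the other course as they were and moves only their error.

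Sequences came from the RefSeq genome of assembly R64, on which sacCer3 is built; the promoter window was read from that genome. Counting intervals are exact at 95%. The genes named were, among members with a mean of at least 50, the 5 lowest and 5 highest of the mean changes, their difference and both slopes, the 3 highest and 3 lowest levels per length, and MRPL32, MRPS12, RSM22 and RSM23; of other lists the 2 lowest and 2 highest per course. A few called members outside this rule are named too. The members and lists were chosen with earlier results of these data known, and the bacterial and mitochondria-specific classes were assigned after the data were seen. The lists held 54 members, 24 other mitoribosomal proteins, 33 translation and assembly factors and 132 cytosolic ribosomal protein genes, whose near-identical pairs can share reads.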

Additional observations from a re-analysis of the deposited data

Results flagged for a closer look

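The courses differed in 11 members by mean change and in 13 by slope, by the test of the difference itself in the limma fit. In mean change 10 members were called higher in heat and 1 lower, where 21.7% and 24.2% of all genes tested were. All 13 slopes were lower in heat, where 21.0% of all genes tested were called lower and 26.0% higher. The members were thus not called more often than genes at large, except for a slightly larger share of lower slopes. The differences in mean log2 change, heat shock minus rapamycin, were 1.22 for MRPL25, 0.86 for MRPL49, 0.77 for MRPL31, 0.73 for MRPS18, 0.63 for MRPS12, 0.57 for MRPL33, 0.55 for MRPL51 and −0.60 for MRPL4. With the untreated libraries exchanged these turned to −0.18 for MRPL25, −0.21 for MRPL49, −0.06 for MRPL31 and 1.36 for MRPL4. Those of MRPS18 (0.38) and MRPL51 (0.31) were then not called. The calls of MRPL25, MRPL49, MRPL31, MRPS18 and MRPL51 were kept under the other 20 of 21 alternatives, and that of MRPL4 under 13. For MRPL25 every heat-shocked library (lowest 114.68) was above every rapamycin-treated one (highest 113.25). The same held for MRPL49 (198.34 and 191.83) and MRPL31 (127.69 and 124.93). For MRPL33 the difference came with the fall in rapamycin, and it was lost without the heat library at 15 min (0.47) or 30 min (0.53) or the rapamycin library at 60 min (0.54) or 90 min (0.53). The differences in slope were −0.39 for MRPL22, −0.38 for MRPS17, −0.36 for RSM10, −0.35 for MRPS12, −0.34 for MRPL16, −0.32 for RSM7, −0.30 for MRPL51, −0.30 for MRPL28, −0.27 for MRPL4, −0.25 for RSM23 and −0.17 for MRPL36. The slope difference of MRPL28 was called in 7 of 20 alternatives.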

How the results depend on the processing

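No paired analysis was possible because each time point has 1 library. The edgeR quasi-likelihood test on the recovered reads used the authors' factors as offsets. Among the 54 genes it gave 9 higher and 3 lower in heat, and 13 lower and 1 higher in rapamycin. It gave 10 higher and 2 lower differences, 25 falling heat slopes and 14 lower slope differences. Over the 4937 genes tested it called 1568 higher and 1826 lower in heat, and 805 lower and 555 higher in rapamycin. Over these it also called 1004 higher and 1222 lower differences, 1307 falling heat slopes and 1057 lower slope differences. The cause of each shift was not tested.

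Equal totals raised the median of the 54 genes to 0.30, 0.32 and 0.42 at 60, 90 and 120 min of heat and gave 21 higher and 2 lower in heat, 2 lower and 3 higher in rapamycin, 21 and 0 for the difference, 4 falling and 9 rising heat slopes, and 4 lower and 3 higher slope differences. TMM factors gave 14 higher in heat, 2 lower and 2 higher in rapamycin and 2 lower differences. Quantile normalization gave 3 lower in rapamycin, 0 lower differences, 0 rising heat slopes and 21 lower slope differences. A slope in minutes gave 3 lower and 0 higher in rapamycin, 16 falling and 0 rising heat slopes, 1 rapamycin slope and 6 slope differences. No filter gave 3 rapamycin slopes. Exchanging the untreated libraries gave 15 lower in heat, 4 lower and 0 higher in rapamycin, 4 higher and 9 lower differences and a median difference of −0.10. A shared time 0 gave 14 lower in heat, 2 higher in rapamycin, 21 higher and 9 lower differences and 2 rapamycin slopes. Each course alone gave 2 lower in heat, 17 lower and 2 higher in rapamycin and 0 rising heat slopes. The share of all genes called under these settings, or without single libraries, is not given here. With 100 bases searched, 88.9% of members and 10.1% of all genes held the Puf3 element.

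Leaving out each treated library gave 9 to 10 higher and 3 to 8 lower in heat, 2 to 11 lower and 0 to 2 higher in rapamycin, 8 to 11 higher and 0 to 3 lower differences, 7 to 24 falling and 0 to 1 rising heat slopes, 0 to 7 rapamycin slopes, and 6 to 15 lower and 0 to 0 higher slope differences. The medians ran from −0.02 to 0.06 in heat, −0.30 to −0.25 in rapamycin, 0.22 to 0.33 for the difference, −0.15 to −0.12 for heat slopes, −0.04 to 0.02 for rapamycin slopes and −0.15 to −0.09 for slope differences.

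Of the 32 named genes, these changed direction with a call on either side. With equal totals heat slopes were 0.00 for MRPL36, 0.02 for MRPL49, 0.13 for MRPS18, 0.00 for MRPS5 and 0.04 for MRPS9. With the untreated libraries exchanged the differences were −0.18 for MRPL25, −0.06 for MRPL31, −0.46 for MRPL36, 1.36 for MRPL4, −0.21 for MRPL49, −0.75 for MRPS17 and −0.57 for RSM27. The mean changes became −0.40 in heat and 0.07 in rapamycin for MRPL36, 0.69 and −0.66 for MRPL4, and −0.03 and 0.18 for MRPL49. With a shared time 0 the differences were 0.38 for MRPL4, −0.36 for MRPS17 and −0.22 for RSM27. Over the 32 named genes and all alternatives, 3713 of 4064 calls were unchanged, 130 of these with the sign turned but no call on either side. Another 136 calls were gained and 194 lost. The unchanged ones include those not called in either fit. They also include leaving out a library of the other course, where the estimate cannot move. The other 22 genes were not followed singly.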
